A study of Mus musculus with 16 samples.

Results

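Liver tumors mutated in Ctnnb1, which encodes beta-catenin, were compared with control liver, and all mice had received phenobarbital (PB), a barbiturate known for inducing hepatic drug metabolism. The comparison held 10 of the study's 16 samples, the 7 Ctnnb1-mutated tumors (replicates 1 to 7) and the 3 control livers of the PB arm (replicates 4 to 6), taken by sample title. The other 6 samples, 3 Ha-ras-mutated tumors and 3 control livers without PB, served to estimate the common spread and to test whether the tumor effects differed. All mice were males of the strain C3H/HeJ. The series' design text gives each mouse 1 injection of diethylnitrosamine, a liver carcinogen, at 10 or 90 µg per g and an age of 2 or 6 weeks, followed after 2 weeks by a diet with 0.05% PB for 28 to 36 weeks. A duration of 27 weeks stands in the sample characteristics instead, while the treatment protocol speaks of drinking water with PB over 28 days. The labels give neither the mutated codon nor the carcinogen dose of a sample, and they do not say whether the control livers came from tumor-bearing mice. PB is common to both groups, so its own effect cannot be read from this comparison. Separate animals are not stated for the samples, and p-values therefore reflect sample to sample spread that may be technical in part.

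Beta-catenin joins cadherins at cell contacts and, when stabilised, activates transcription as the effector of Wnt signalling. In the absence of a Wnt signal, a complex with APC, casein kinase 1 and GSK3 phosphorylates its amino terminus and marks it for degradation, and mutations of that region let it escape. In normal liver the pathway is active in hepatocytes around the central veins, where glutamine synthetase (GLUL), CYP1A2 and CYP2E1 are made, and PB is known to favour the outgrowth of Ctnnb1-mutated tumors in mice.

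A reverse-phase protein array was used, in which each tissue lysate is spotted on a chip and every antibody is read as a fluorescence intensity over the spots. It held 158 antibodies, 50 of them to phosphorylation sites, and 45 pairs of a site and its total protein could be formed. Signals are given below as multiples of the median antibody signal of the same sample, and differences as log2 tumor minus control after centring each sample on that median. The median intensity was 0.532 to 0.791 relative fluorescence units in the tumors and 0.520 to 0.633 in the controls. Of the 158 antibodies, 106 read at 2 times their secondary-antibody blank or more in all 10 samples, and 14 read below that limit, here called dim, in all 10. Antibodies carry the human-style symbols of the files, with a final number where several target 1 protein, and which mouse homolog is bound by those to CYP2B6, CYP2C8, CYP2D6, CYP3A4, CYP3A5 or CYP4F2 is not known. The array carried hepatocyte markers and, of the mesenchymal markers looked for, only CDH2. It carried none of the cholangiocyte, endothelial or leukocyte markers looked for, so the cell makeup of the tumors was not measured.

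The sample labelled Ctnnb1 tumor 6 had low signals in the antibodies to GLUL, CYP2E1 and 1 of the antibodies to CYP1A2, all beta-catenin target proteins. Whether this bears on its label was not tested. Its GLUL intensity was not positive (-0.0233 relative fluorescence units) and was treated as missing, whereas the other 6 tumors read between 15.3 and 91.6 times the median. Its CYP1A2_1 signal was 1.92, against 18.3 to 37.2 in the other tumors. Its CYP2E1_1 signal of 0.703 and CYP2E1_2 signal of 10.1 were the lowest of the 10 samples. The second CYP1A2 antibody, CYP1A2_2, went the other way, with tumor 6 at the sample median and above every control (0.758, 0.805 and 0.963). Tumor 7 was also low for GLUL and both CYP2E1 antibodies, but not for CYP1A2_1. Several results are given below with and without tumor 6, and that for GLUL, where its value was missing, over the other 6 tumors. Tumor 6 was singled out by these same values. Leaving it out therefore raises the tumor means of CYP1A2_1 and both CYP2E1 antibodies by construction and is not a separate test.

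No antibody differed between the tumors and control liver at an adjusted p under 0.05 (0 of 158, 0.0%, limma with Benjamini-Hochberg adjustment, smallest adjusted p = 0.250, n = 7 and 3). At an unadjusted p under 0.05 there were 25 (15.8%), 24 with a lower mean in tumors (15.2%) and 1 with a higher mean (0.633%). Most differences were small. Of the 158 antibodies, 105 lay within 0.25 log2 of 0, and 7 lay beyond 0.5 log2. The antibodies with the largest positive differences were GLUL, the cytoskeletal protein ACTB and SOCS3, a feedback inhibitor of JAK kinases, and those with the largest negative ones were CYP3A4_2, the AMP-activated kinase site PRKAA1_P-T172 and UGT1A1, which conjugates bilirubin.

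The array as a whole lay slightly to the negative side, and this depended on the scaling. The median difference over all antibodies was -0.14, with 121 of 158 below 0 (76.6%). Scaling to the Alexa647 reference rows printed on the chip instead of the sample median moved every complete antibody up by 0.21, to a median of 0.07 with 55 below 0 (34.8%). Centring on the median ratio of each sample to the average sample, added after seeing the data, moved them up by 0.16, to a median of 0.02 with 70 below 0 (44.3%). The sign of the median thus changed with the scaling. Differences below are to be read against the array median of -0.14, and counts below 0 in a list against the array's 76.6%.

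**Figure D1:**
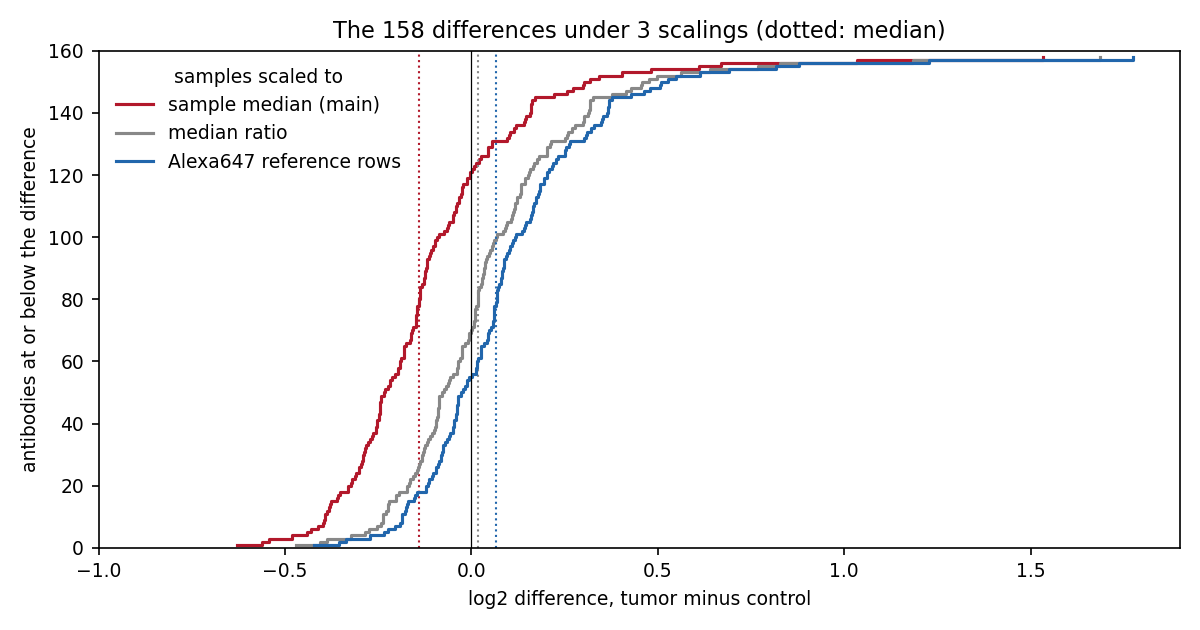
Cumulative number of the 158 antibodies (vertical axis) at or below each log2 difference, Ctnnb1 tumors minus PB control liver (horizontal axis), with the samples scaled in 3 ways. The curves run parallel, and their medians (dotted) are -0.14 for the sample median, 0.02 for the median ratio and 0.07 for the Alexa647 reference rows.

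What the samples can exclude is given by the 95% intervals of the same fit. For 142 of 158 antibodies (89.9%) the interval lay within a 2-fold difference in either direction, and for 95 (60.1%) within 1.5-fold. The median interval reached 0.31 log2 to each side of the estimate, a factor of 1.24. With intervals widened to hold for all 158 antibodies at once, also added after seeing the data, 100 (63.3%) still lay within 2-fold. Under sample-median, Alexa647, median-ratio and quantile scaling alike, 135 antibodies lay within 2-fold. Blanks were not subtracted, so for a dim antibody the interval bounds the measured signal and understates the range for the protein. After subtraction of the blank 112 antibodies lay within 2-fold.

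**Figure D2:**
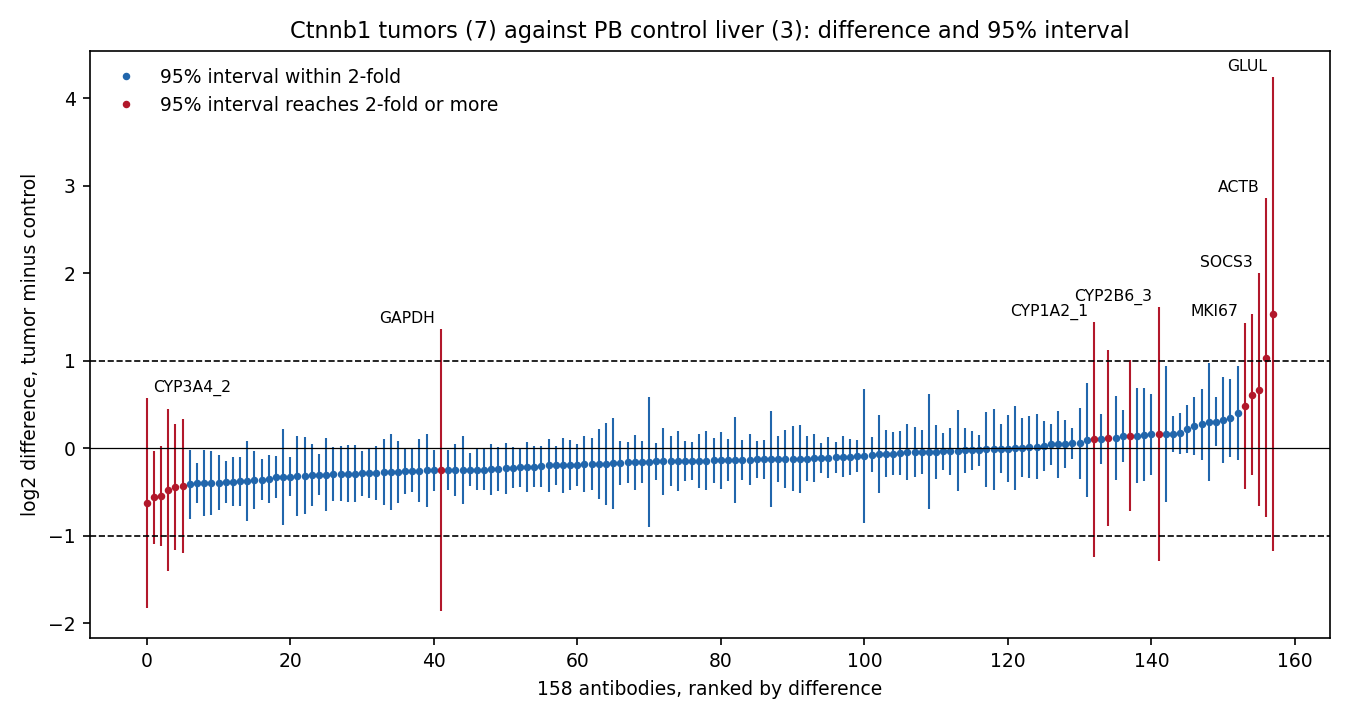
Log2 difference (point) and 95% interval (line) of each of the 158 antibodies, ranked, with dashed lines at a 2-fold difference. The 142 blue intervals stay within 2-fold, and the 16 red ones do not, the widest being that of GLUL (-1.17 to 4.24).

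The narrowest interval was that of STAT3_P-Y705, the activating tyrosine site of the transcription factor STAT3 (-0.11, 95% interval -0.28 to 0.06). Tumors read 0.510 to 0.605 (median 0.554) and controls 4, 5 and 6 read 0.596, 0.602 and 0.597, so the groups overlapped. CDC25C, a phosphatase that triggers mitosis, had a difference of -0.02 (-0.20 to 0.15). PDK1_P-S241, the activation-loop site of the kinase that acts on Akt, had one of -0.10 (-0.28 to 0.07). EIF2AK3, the kinase PERK of the unfolded protein response, had one of 0.05 (-0.12 to 0.23). With sample-median centring, a 1.5-fold change of the signal in either direction was outside the interval for these 4 antibodies. This did not hold for every scaling, since the interval for EIF2AK3 was 0.02 to 0.67 in the authors' value table.

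For 16 antibodies (10.1%) a 2-fold difference remained within reach, for 12 of them although they were bright in all 10 samples. In 10 of the 16 the upper limit reached a doubling, in 10 the lower limit reached a halving, and in 4 both did, GLUL, CYP1A2_1, CYP2B6_3 and GAPDH. Others were ACTB, SOCS3, CYP2E1_1, CYP2E1_2, CYP3A4_2, UGT1A1, MKI67, MET, HIST1H3A, PRKAA1_P-T172 and RPS6_P-S235/S236. Part of this width came from the shared spread. With the 2 PB groups fitted alone, 4 of the 16 came within 2-fold, among them CYP2B6_3, whose interval shrank from -1.29 to 1.61 down to -0.11 to 0.44.

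Of the 16 antibodies to Wnt/beta-catenin components and targets, 11 had a difference below 0 and 5 above, none passed, and the median was -0.08, against -0.14 for the array (0.13 with Alexa647 and 0.08 with median-ratio scaling). Total beta-catenin (CTNNB1) spread widely in the tumors, with values of 2.75, 5.55, 6.27, 3.44, 1.65, 3.25 and 7.94 for tumors 1 to 7. Controls 4, 5 and 6 read 3.78, 3.76 and 5.05. Above every control lay 3 tumors and below every control 4, and the difference was -0.09 ± 0.36 (SE, 95% interval -0.86 to 0.68). The antibody to the amino-terminal sites that mark beta-catenin for degradation, CTNNB1_P-T41/S45, read 0.265 to 0.435 (median 0.359) in tumors. Controls read 0.291, 0.344 and 0.364, within the range of the tumors (0.01 ± 0.16, 95% interval -0.33 to 0.34). The site CTNNB1_P-S675, a target of protein kinase A, had a difference of -0.15 ± 0.18 and an interval of -0.53 to 0.24. With sample-median centring both site intervals lay within 1.5-fold in either direction. This did not hold for every scaling. The upper limit for CTNNB1_P-T41/S45 was 0.61 with Alexa647 scaling, 0.80 after blank subtraction and higher again in the authors' value table, and that for CTNNB1_P-S675 was 0.68 in the authors' value table.

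GLUL, which makes glutamine from ammonia and glutamate, read 91.6, 69.3, 72.0, 58.1, 57.9 and 15.3 in tumors 1, 2, 3, 4, 5 and 7. Controls 4, 5 and 6 read 34.5, 49.7 and 3.69. Above every control lay 5 tumors, tumor 7 lay below 2 of them, and control 6 lay far below the other controls. The difference was 1.53 ± 1.26 (n = 6 and 3, tumor 6 missing, adjusted p = 0.470), a 2.89-fold ratio whose interval runs from 2.26-fold lower to 18.9-fold higher. The exact two-sided permutation p was 0.190. The missing intensity of tumor 6 was the lowest of the tumors, so leaving it out raised their mean. Over 21 alternatives, including a fit with it set to the lowest positive signal, the difference ran from 0.11 to 2.25.

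CYP1A2_1, one of the antibodies to a drug-metabolising enzyme of the perivenous zone, read 1.92 to 37.2 (median 22.9) in tumors. Controls read 15.8, 17.0 and 13.5. All tumors but tumor 6 lay above every control. The difference was 0.10 ± 0.63 with tumor 6 and 0.62 ± 0.19 without it (95% interval 0.21 to 1.03, adjusted p = 0.261, n = 6 and 3). Since tumor 6 was singled out by this signal, the value without it is raised, and its spread narrowed, by construction. The second antibody to the same enzyme, CYP1A2_2, gave -0.05 ± 0.15 and overlapping groups, so the antibodies to CYP1A2 disagreed. CYP1A1_1, to a related enzyme, also had its lowest value in tumor 6, at 0.969, and the other tumors at 1.93 to 3.06. Controls read 1.89, 1.79 and 1.75, and the difference was 0.16 ± 0.25 with tumor 6 and 0.33 ± 0.15 without it. Here too, leaving out the lowest tumor can only raise the tumor mean. The second antibody to that enzyme, CYP1A1_2, went the other way, with 6 of 7 tumors below every control. Its difference was -0.21 ± 0.11 with tumor 6 and -0.20 ± 0.11 without it, so the antibodies to CYP1A1 disagreed as well.

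CYP2E1, an ethanol-inducible P450, was read by both of its antibodies as low in tumors 6 and 7. CYP2E1_2 was 10.1 to 49.3 (median 32.5) in tumors. Controls were 39.0, 42.6 and 38.5. Below every control lay 4 tumors and above every control 3, and the difference was -0.48 ± 0.43 (95% interval -1.41 to 0.45). CYP2E1_1 gave -0.43 ± 0.36. Without tumor 6 the differences were smaller, -0.23 ± 0.34 for CYP2E1_2 and -0.20 ± 0.26 for CYP2E1_1.

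None of the other Wnt members passed the test. GSK3B, the kinase that phosphorylates beta-catenin, read 0.985 to 1.28 (median 1.1) in tumors. Controls read 1.01, 1.02 and 0.927, and 6 of 7 tumors lay above every control (0.16 ± 0.10, adjusted p = 0.399). Its inhibitory site GSK3B_P-S9 had a difference of 0.40 ± 0.25, again with 6 of 7 tumors above every control, and was dim in 4 of the 10 samples. APC, the scaffold of the degradation complex, had -0.41 ± 0.19 and was dim in all 10 samples. Its direction turned after blank subtraction (1.13 ± 1.31) and in the authors' value table (1.33 ± 1.08). The targets cyclin D1 (CCND1, -0.00 ± 0.18) and MYC (-0.14 ± 0.23) had overlapping groups.

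**Figure D3:**
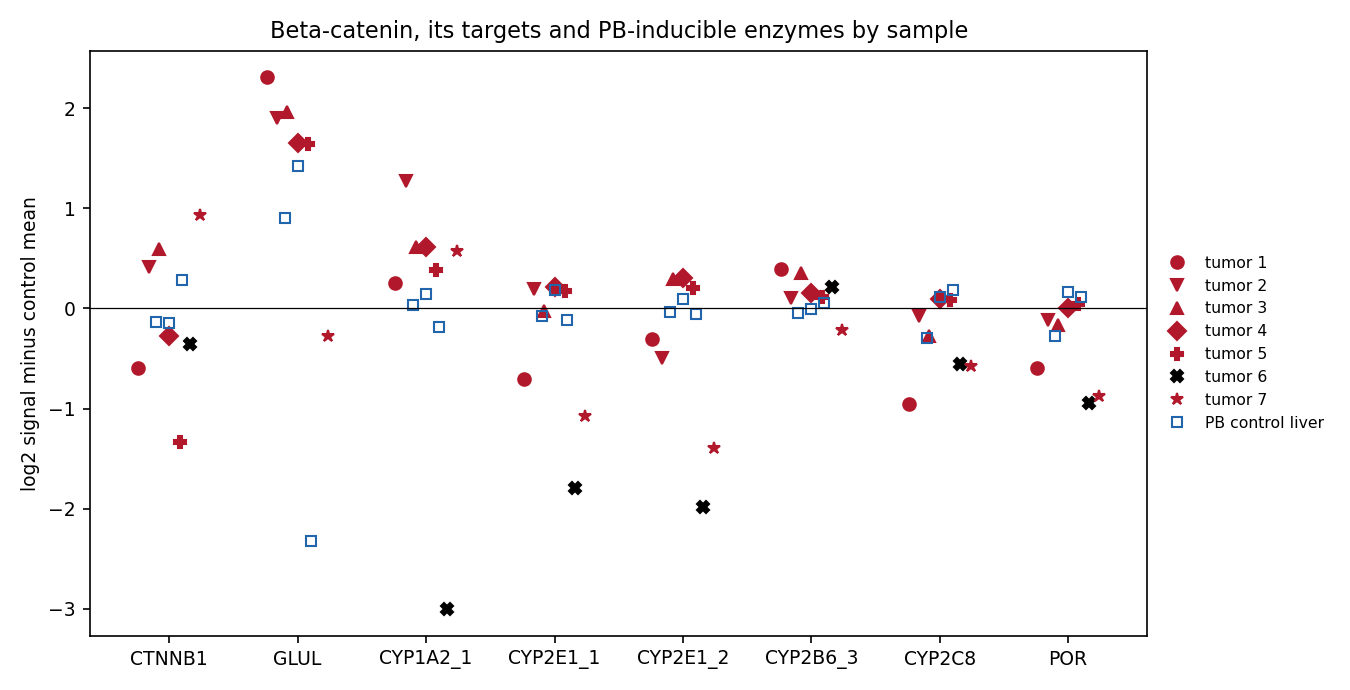
Log2 signal of each sample minus the mean of the 3 PB control livers (vertical axis) for beta-catenin, 4 antibodies to its target proteins and 3 to PB-inducible proteins. Tumor 6 (black) reads lowest for CYP1A2_1 and both CYP2E1 antibodies and is missing for GLUL, where its intensity was not positive, and control 6 is the low control of GLUL.

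The 20 antibodies to xenobiotic metabolism, 15 of them to cytochromes P450, included families that PB is known to induce in liver. None passed, 17 had a difference below 0 (76.6% over the whole array), and the median was -0.25 (-0.04 with Alexa647 and -0.09 with median-ratio scaling). In bulk tissue fewer cells of a type and less protein per cell cannot be told apart. CYP2B6_3, an antibody to the family most strongly induced by PB, read 301.7 to 459.8 (median 388.4) in tumors. Controls read 338.1, 346.9 and 362.2, and 6 of 7 tumors lay above every control. The mean difference over all 7 tumors was 0.16 (exact two-sided permutation p = 0.250). The other antibodies to CYP2B6 did not share this direction. CYP2B6_1 had -0.17 ± 0.24, with 4 tumors below every control and 2 above, and CYP2B6_2 had -0.00 ± 0.13 with overlapping groups. CYP2D6, a P450 of drug oxidation, read 16.1 to 21.8 (median 18.3) in tumors. Controls read 22.8, 23.5 and 24.6, so every tumor lay below every control (-0.36 ± 0.11, 1.28-fold lower, adjusted p = 0.250).

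UGT1A1 had one of the largest negative differences in this list (-0.54 ± 0.27, adjusted p = 0.324). Tumors read 7.58 to 19.6 (median 12) and controls 14.6, 22.7 and 13.3, and 5 tumors lay below every control. POR, the reductase that supplies electrons to P450 enzymes, read 24.4 to 48.7 (median 42.0) in tumors. Controls read 38.8, 52.8 and 51.1, and tumors 1, 6 and 7 lay below all of them (-0.38 ± 0.21). The same 3 tumors held the lowest values of CYP2C8 (7.45, 9.81 and 9.68, against 11.7, 15.6 and 16.3 in controls). The paraoxonase PON1, a secreted esterase of hepatocytes, had -0.25 ± 0.11, and CYP4F2, a fatty acid hydroxylase, -0.26 ± 0.11, each adjusted p = 0.292.

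All 9 antibodies to hepatocyte regulators had a difference below 0, where 76.6% of the whole array did, and none passed. Their median was -0.24, against -0.14 for the array (-0.04 with Alexa647 and -0.09 with median-ratio scaling). HNF4A, a transcription factor of hepatocyte identity, read 2.03 to 2.78 (median 2.45) in tumors. Controls read 2.66, 2.83 and 2.99, and 5 of 7 tumors lay below every control (-0.22 ± 0.11, 95% interval -0.46 to 0.01). The 3 antibodies to PPARA, a receptor that drives fatty acid oxidation, gave -0.23, -0.15 and -0.25. PRKAA1_P-T172, the activating site of the energy sensor AMPK, read 1.39 to 3.92 (median 2.67) in tumors. Controls read 3.97, 3.07 and 4.04. All tumors but tumor 6 lay below every control, with a difference of -0.56 ± 0.25 with tumor 6 (adjusted p = 0.292) and -0.67 ± 0.22 without it (adjusted p = 0.261).

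The Ras/MAPK cascade carries growth factor signals through MEK and ERK kinases to ribosomal S6 kinases of the RSK family. Its 18 antibodies all had intervals within 2-fold (89.9% over the whole array). Of them 15 had a difference below 0 (76.6% over the array), and the median was -0.24 (-0.03 with Alexa647 and -0.08 with median-ratio scaling). The activating sites of ERK1, read by MAPK3_P-T202/Y204, stood at 1.96 to 3.03 (median 2.52) in tumors. Controls stood at 2.62, 2.34 and 2.66, and the groups overlapped, with a difference of -0.01 ± 0.20 and an interval of -0.44 to 0.42. Total ERK1 (MAPK3) had 0.26 ± 0.16. The activating sites of MEK1, MAP2K1_P-S217/S221, had -0.29 ± 0.15 (95% interval -0.61 to 0.02), so a rise of 1.5-fold is outside the interval. HRAS, the GTPase upstream, read 0.859 to 1.11 (median 0.969) in tumors. Controls read 1.08, 1.17 and 1.19, and 5 tumors lay below every control (-0.24 ± 0.11, adjusted p = 0.292). MEK2 (MAP2K2) read 0.405 to 0.544 (median 0.462) in tumors. Controls read 0.577, 0.569 and 0.581, and every tumor lay below every control (-0.29 ± 0.12, adjusted p = 0.292).

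The direct test of the difference between tumor genotypes, the Ctnnb1 effect on PB minus the Ha-ras effect without PB, passed for 8 antibodies (5.06%) at an adjusted p under 0.05, though genotype and PB cannot be told apart in it. The 2 effects share no samples. Phosphorylated ERK1 differed most clearly, by -2.02 ± 0.31 (adjusted p = 0.0018), with -0.01 in Ctnnb1 and 2.01 in Ha-ras tumors. Phosphorylated MEK1 differed by -1.06 ± 0.23, and the RSK sites RPS6KA1_P-T573 and RPS6KA3_P-T353/T356 by -0.92 ± 0.17 and -1.04 ± 0.22. STAT3 differed by -0.91 ± 0.23, its serine site STAT3_P-S727 by -1.07 ± 0.23, and PDK1_P-S241 by -0.48 ± 0.13. CYP2B6_3 differed by 5.15 ± 1.12, with 1 Ha-ras tumor missing.

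In 14 of 158 antibodies (8.86%) the 7 tumor and 3 control values did not overlap, 13 with every tumor below every control (8.23%) and 1 with every tumor above (0.633%). For each the exact two-sided permutation p was 0.0167, the smallest that the 120 splits of 7 and 3 samples allow. The 13 were the signalling proteins JAK1, JAK2, MAP3K7, ILK, MAP2K2 and PRKAA1, the sites MAP3K7_P-S412 and EGFR_P-Y845, the histone deacetylases HDAC2 and HDAC3, the cell cycle inhibitor CDKN1B, the receptor PPARA_1 and CYP2D6. Only 8 of the 14 were bright in all 10 samples. MAP3K7, MAP3K7_P-S412 and CDKN1B were dim in all 10.

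**Figure D4:**
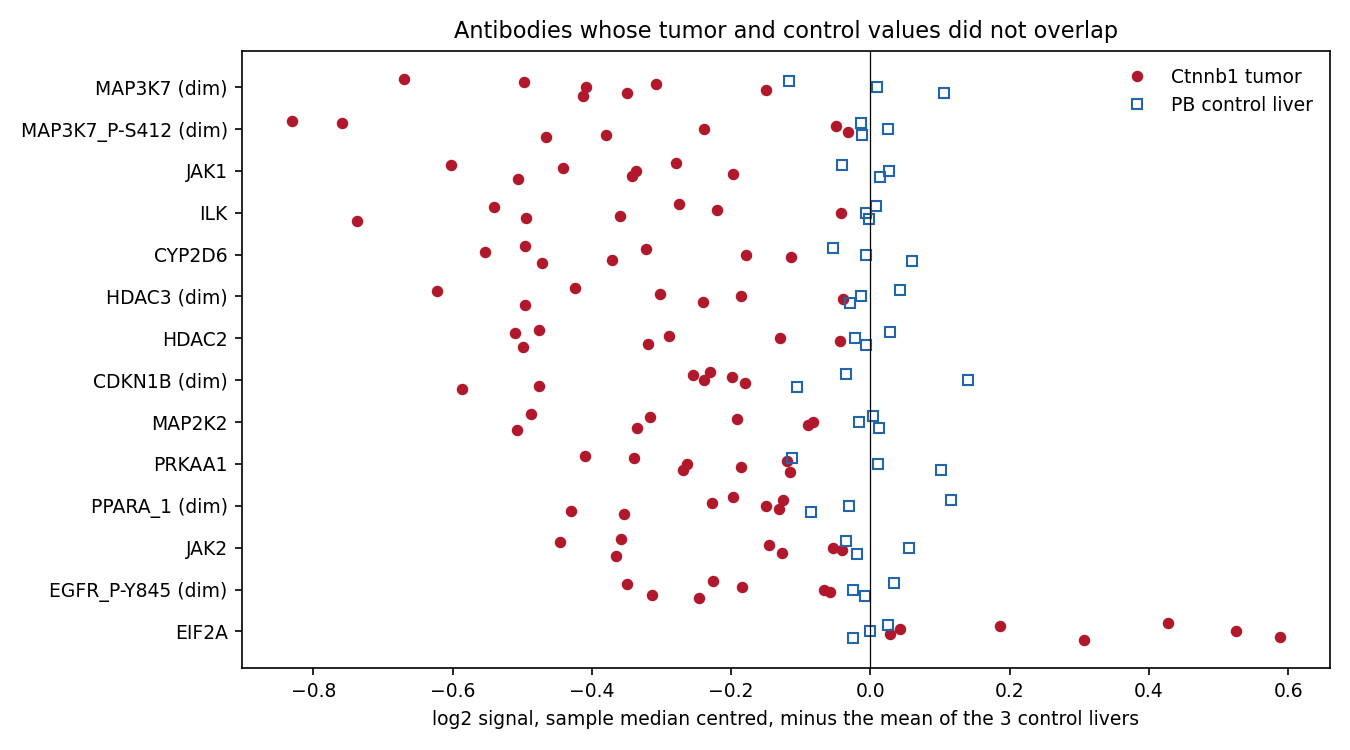
The 14 antibodies whose tumor (red) and control (blue) values did not overlap, as log2 signal centred on the sample median minus the mean of the 3 control livers (horizontal axis), with those under 2 times their blank in any of the 10 samples marked dim. Tumors lie below controls in 13 rows and above them for EIF2A, and in most rows the gap between the groups is smaller than the spread of the tumors.

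This list depended on the scaling. With median-ratio centring 3 antibodies lay wholly lower (CYP2D6, JAK1 and MAP3K7, 1.9%), all among the 13, and 2 wholly higher (EIF2AK3 and GSK3B, 1.27%). With Alexa647 scaling none lay wholly lower (0.0%) and 3 wholly higher (EIF2A, MAPK3 and JAK1_P-Y1022/Y1023, 1.9%). After blank subtraction CYP2D6, JAK1, MAP3K7 and EGFR_P-Y845 lay wholly lower. For antibodies without a missing value, leaving out 1 sample can only keep or raise the count. It therefore cannot show whether 1 sample set the list. The count was 26 without tumor 5, 28 without control 4 and 24 without control 6. Without tumor 6 it was 18, and CYP1A2_1, CYP1A1_1 and GSK3B joined EIF2A as wholly higher.

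JAK1, a kinase of cytokine receptors, was the only one of the 13 to lie wholly lower under sample-median, median-ratio, quantile and blank-subtracted values. Tumors read 0.597 to 0.791 (median 0.715). Controls read 0.882, 0.924 and 0.915. The difference was -0.39 ± 0.11, a 1.31-fold lower mean and 0.25 below the array median (adjusted p = 0.250), and -0.18 with Alexa647 scaling. JAK2, which pairs with JAK1 at many receptors, had -0.22 ± 0.10, with tumors at 0.428 to 0.567 (median 0.527) and controls at 0.569, 0.605 and 0.575.

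With a separate spread for each group, 4 antibodies passed, all lower in tumors, JAK1 and MAP3K7 (both adjusted p = 0.0364) and CYP2D6 and HDAC2 (both adjusted p = 0.0432). The tumors varied more than the controls, with a median SD of 0.213 against 0.108 log2, and the tumor SD was the larger in 137 of 158 antibodies (86.7%). MAP3K7, the kinase TAK1 that relays stress and cytokine signals, read 1.83 to 2.62 (median 2.19) in tumors. Controls read 2.68, 2.93 and 3.13 (-0.40 ± 0.11), and all 10 values were dim. HDAC2, which removes acetyl groups from histones, read 0.630 to 0.871 (median 0.719) in tumors. Controls read 0.915, 0.884 and 0.894 (-0.32 ± 0.10).

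ILK, an integrin-linked adapter at focal adhesions, read 1.73 to 2.81 (median 2.25) in tumors. Controls read 2.91, 2.88 and 2.89, closely together and above every tumor (-0.38 ± 0.13, adjusted p = 0.250). EIF2A, the translation initiation factor, was the only antibody wholly higher in tumors, at 1.32 to 1.95 (median 1.60). Controls read 1.32, 1.30 and 1.27, and the lowest tumors were close to the highest control (0.30 ± 0.13, adjusted p = 0.292, and 0.51 with Alexa647 scaling). Its site EIF2A_P-S51, which halts translation when phosphorylated, had -0.14 ± 0.12 and was dim in 9 of the 10 samples.

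Of the 13 antibodies to JAK, STAT and NF-kB proteins, 10 had a difference below 0, with a median of -0.16 (0.05 with Alexa647 and -0.00 with median-ratio scaling). STAT3_P-S727 read 0.351 to 0.517 (median 0.413) in tumors. Controls read 0.492, 0.562 and 0.613, 6 of 7 tumors lay below all of them (-0.39 ± 0.15, adjusted p = 0.251), and it was dim in 6 of the 10 samples. SOCS3 was dim in 3 tumors and in all 3 controls, and spread from 0.165 to 1.14 (median 0.362) in tumors. Controls read 0.275, 0.293 and 0.292, and tumors 3 and 6 were far above them (0.67 ± 0.62, 95% interval -0.66 to 2.00). Without tumor 6 the interval was -0.83 to 1.74.

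The PI3K/Akt/mTOR list, which couples growth factors to protein synthesis, held 19 antibodies with a median of -0.06, 13 of them below 0 (0.15 with Alexa647 and 0.10 with median-ratio scaling). Total AKT1 had -0.03 ± 0.13 with an interval of -0.30 to 0.23. Its activating site AKT1_P-S473 read 0.277 to 0.472 (median 0.370) in tumors. Controls read 0.399, 0.434 and 0.528, and 6 of 7 tumors lay below every control (-0.36 ± 0.16, adjusted p = 0.292). PIK3R1, the regulatory subunit of PI3K, had -0.30 ± 0.11 (adjusted p = 0.251). The ribosomal protein site RPS6_P-S235/S236 was 9.63, 10.5 and 24.1 in tumors 1, 2 and 3 and 4.47 to 6.39 in the other tumors. Controls read 5.29, 4.42 and 5.68, so 4 tumors lay above every control, tumor 7 by little (0.61 ± 0.43, 95% interval -0.31 to 1.53).

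Of the 10 antibodies to receptor tyrosine kinases and the phosphatase PTPN11, 9 had a difference below 0, where 76.6% of the whole array did. Their median was -0.17 (0.04 with Alexa647 and -0.01 with median-ratio scaling). EGFR, the receptor of epidermal growth factor, had -0.38 ± 0.13 (adjusted p = 0.250), with 6 of 7 tumors below every control, and was dim in 7 of the 10 samples. PTPN11, which couples receptors to Ras, had -0.25 ± 0.11 (adjusted p = 0.292). The 9 antibodies to stress MAP kinases were split, 5 below 0 and 4 above (median -0.07, 0.13 with Alexa647 and 0.08 with median-ratio scaling). The kinase JNK1 (MAPK8) had 0.34 ± 0.21 and p38 alpha (MAPK14) 0.06 ± 0.19.

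Among 17 antibodies to the cell cycle and DNA repair, 13 had a difference below 0 (median -0.11, 0.10 with Alexa647 and 0.05 with median-ratio scaling), and none passed. The proliferation marker MKI67 read 2.00, 1.47, 1.21, 0.770, 0.841, 0.477 and 0.735 in tumors 1 to 7. Controls read 0.798, 0.857 and 0.488. Tumors 1, 2 and 3 lay above every control and tumor 6 below all, which gave 0.48 ± 0.45 (95% interval -0.47 to 1.44). Without tumor 6 the interval was -0.25 to 1.56. The mitotic kinase AURKB had -0.15 ± 0.10, and CDC25A, which activates cyclin-dependent kinases, read 2.76 and 1.40 in tumors 1 and 2 and 0.811 to 0.939 in the others, against 0.845 to 0.922 in controls.

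The 8 antibodies of the apoptosis list had a median of -0.12 (0.09 with Alexa647 and 0.04 with median-ratio scaling). The death effector BAX had 0.27 ± 0.19. Of 11 antibodies to histones and deacetylases 9 were below 0 (median -0.18, 0.02 with Alexa647 and -0.03 with median-ratio scaling), among them the acetylation mark HIST1H3A_A-K18 (-0.30 ± 0.14). The 10 antibodies to adhesion and cytoskeleton had a median of -0.04 (0.17 with Alexa647 and 0.12 with median-ratio scaling). ACTB, often used as a reference protein, ranged from 0.501 to 4 in tumors, was not positive in control 6, and read 1.02 and 0.980 in controls 4 and 5, so its difference of 1.03 ± 0.85 rests on 2 controls. The remaining 7 antibodies had a median of -0.05, and GAPDH, the other usual reference protein, was dim in 5 of the 10 samples (-0.25 ± 0.76).

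Relative to total protein, phosphorylation differed for 1 of 45 pairs (2.22%), a measure that does not depend on the scaling of the samples by 1 factor. JAK1_P-Y1022/Y1023, the activation-loop sites of JAK1, was 1.47-fold higher relative to JAK1 in the tumors (log2 difference 0.56 ± 0.13, 95% interval 0.28 to 0.83, limma adjusted p = 0.0248). The ratio of the site to the total signal was 1.34, 1.30, 1.5, 1.43, 1.32, 1.45 and 1.77 in tumors 1 to 7. In controls 4, 5 and 6 it was 0.909, 1.03 and 0.998, so the groups did not overlap. Total JAK1 differed by -0.39 and the site by 0.17 ± 0.11, and the site itself read 0.778 to 1.13 (median 1.03) against 0.801, 0.953 and 0.914. The call passed in 14 of 22 alternatives, but some of these could not change it. No centring, Alexa647 scaling and median-ratio centring leave a ratio within a sample unchanged, so they repeat the main limma adjusted p of 0.0248. So does setting non-positive values to the lowest positive signal, since no pair holds such a value. The call was lost without tumor 3 (adjusted p = 0.0551) and without any 1 of the controls (0.252, 0.0772 and 0.100 without controls 4, 5 and 6). The difference stayed between 0.50 and 0.65 throughout. Without tumor 6 the adjusted p was 0.0497.

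**Figure D5:**
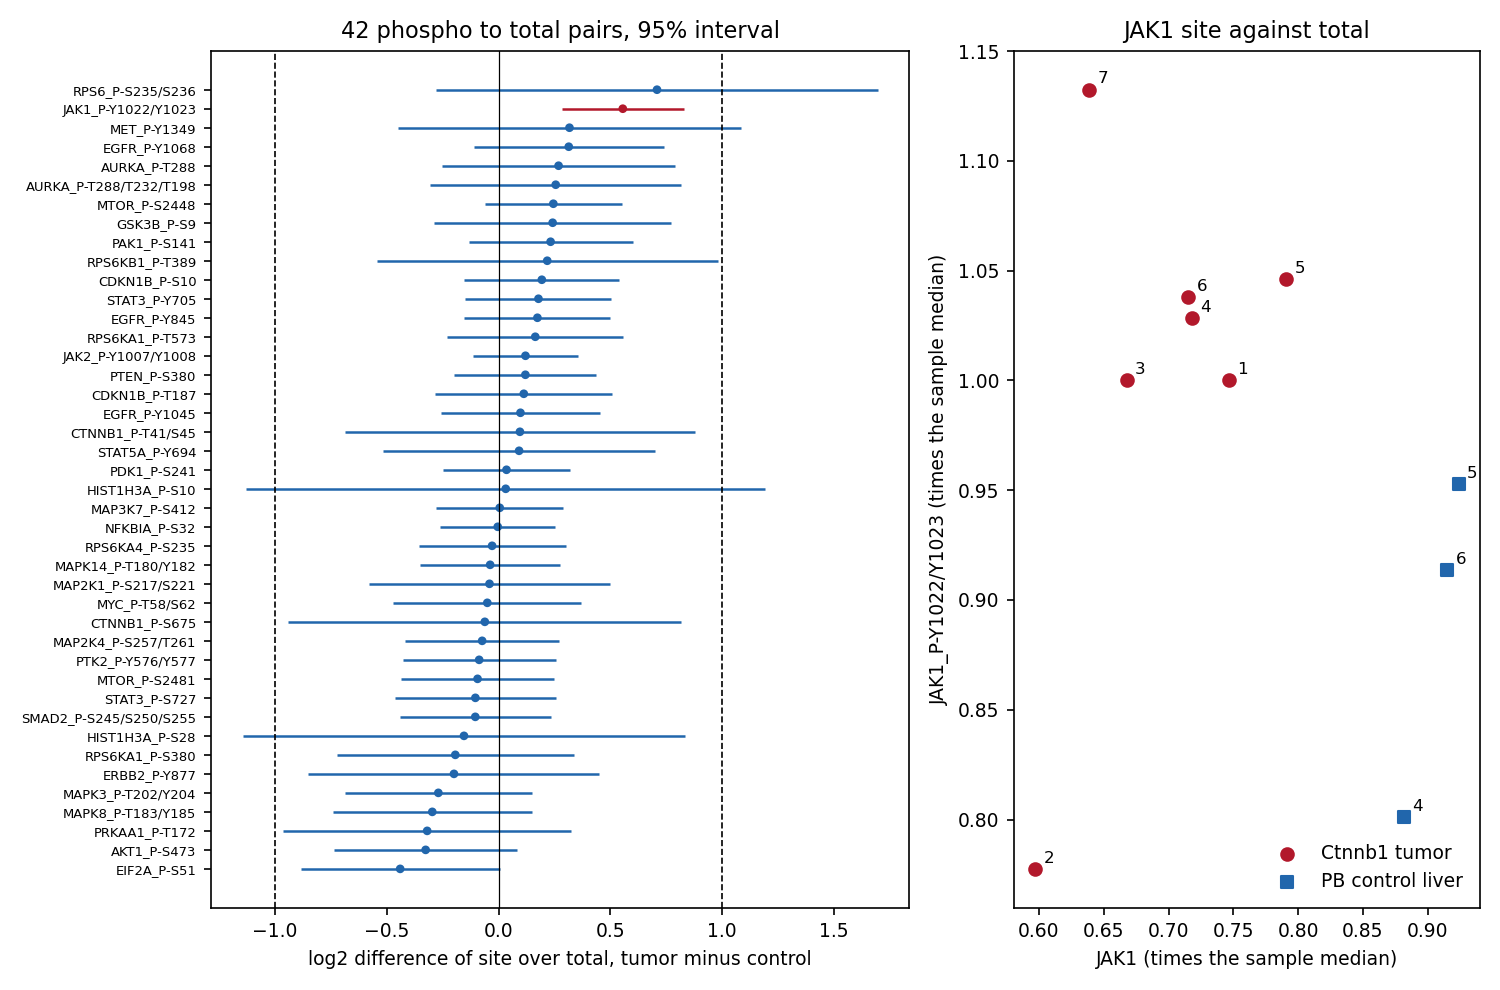
Left, log2 difference of site over total signal with its 95% interval for 42 pairs, named by site, with the 1 pair past an adjusted p of 0.05 in red and dashed lines at 2-fold. Right, the JAK1 sites against total JAK1 in each sample (multiples of the sample median, replicate numbers beside the points), where the 7 tumors lie at lower total signal than the 3 controls.

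The other pairs gave 21 differences below 0, and none passed. In 2 of 45 pairs (4.44%) the groups did not overlap, both higher in tumors. Intervals lay within 2-fold for 40 of 45 pairs (88.9%) and within 1.5-fold for 21 (46.7%). Among the exceptions to the first were the sites HIST1H3A_P-S10, HIST1H3A_P-S28, MET_P-Y1349 and RPS6_P-S235/S236. Phosphorylated ERK1 relative to its total had -0.27 ± 0.20 (95% interval -0.69 to 0.15), which differed from the Ha-ras effect by -1.75 ± 0.31 (adjusted p = 0.00153). In that test 2 of 45 pairs passed (4.44%). The other was STAT3_P-Y705 relative to STAT3, which differed by 0.91 ± 0.24 (limma adjusted p = 0.0362), with 0.18 in Ctnnb1 and -0.73 in Ha-ras tumors. EIF2A_P-S51 relative to EIF2A had -0.44 ± 0.21 and the JAK2 activation sites relative to JAK2 0.12 ± 0.11. For beta-catenin the intervals ran from -0.69 to 0.88 for CTNNB1_P-T41/S45 and from -0.94 to 0.82 for CTNNB1_P-S675 relative to the total.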

How the data were processed

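Lysates were made from milled frozen tissue under denaturing conditions (8-fold excess of buffer) and read through fluorescent secondary antibodies, per the labels' protocols. The deposited sample files hold an intensity per row, for 158 antibodies, 6 rows of Alexa647 reference and 19 blanks. Any earlier scaling of these intensities by the authors is not stated. The authors' value table holds log2 values, centred on the control livers of each arm, and was used as an alternative. For 145 antibodies a blank was found whose subtraction gave that table, for 1 the table held the value without a blank and 12 were unmatched, for which the median blank was used to call them dim.

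Intensities were log2 transformed and centred on each sample's median, taken over 155 antibodies with no value at or below 0. As missing were treated 3 values (GLUL in Ctnnb1 tumor 6, ACTB in PB control 6 and CYP2B6_3 in a Ha-ras tumor). One limma fit (R 4.3.3, limma 3.58.1) of 4 group means over 16 samples gave differences, 95% intervals and p-values adjusted by Benjamini-Hochberg over 158 antibodies or 45 pairs. It was tested on simulated data with the same spread in every group, which does not cover the larger spread of the tumors. The number of samples limits the precision.

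Controls and tumors share replicate numbers 4 to 6, but the correlations of same-numbered deviations were 0.095, 0.128 and 0.225, so the numbers were not taken to pair samples. Named were the 25 antibodies of smallest p, those without overlap, the 10 pairs of smallest p, the 10 narrowest and 10 widest intervals, up to 4 of each of 13 protein lists, and beta-catenin, GSK3B, Ras, GLUL, ERK, MEK, Akt and P450 antibodies. Others, such as POR, HNF4A, CCND1, MYC, BAX, MET, CDC25A, MAPK14, PPARA_2, RPS6KA1_P-T573 and RPS6KA3_P-T353/T356, were chosen after their values were seen. Some antibodies and pairs are counted but not reported here. The members and lists were chosen with earlier results of these data known. Of 101 protein symbols, 91 match the symbol of a mouse gene of the RefSeq table (GRCm38.p6). The match is by name alone and does not show which protein an antibody binds.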

Additional observations from a re-analysis of the deposited data

Results flagged for a closer look

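Of 89 antibodies chosen for closer description, 8 had 1 tumor apart from the others of the group by Dixon's ratio, the gap to the nearest value over the whole range. Chance gives about 1 such case in 20 groups, and over all antibodies the share was 12 of 158 (7.59%). Over all antibodies tumor 7 stood apart 4 times, tumor 2 3 times, tumors 3 and 6 each 2 times and tumor 5 once. Tumor 6 was the lowest for CYP1A2_1 (ratio 0.761) and CYP1A1_1 (0.598). Tumor 7 was the lowest of 6 for GLUL (0.743), with tumor 6 missing, and the lowest for MYC_P-T58/S62 (0.603). It was the highest for GAPDH (0.593). Tumor 2 was the lowest for JAK1_P-Y1022/Y1023 (0.669), tumor 3 the highest for the histone HIST1H3A (0.578), and tumor 5 the highest for APC (0.659).

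The Ctnnb1 effect differed from the Ha-ras effect, by the interaction term of the fit, for MAPK3_P-T202/Y204 (-2.02), its pair with total MAPK3 (-1.75), MAP2K1_P-S217/S221 (-1.06), STAT3 (-0.91), STAT3_P-S727 (-1.07), PDK1_P-S241 (-0.48) and CYP2B6_3 (5.15). The pair of STAT3_P-Y705 with total STAT3 differed in the opposite direction to STAT3 (0.91), and the RSK sites given above also passed. Genotype and PB treatment differ together between these effects.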

How the results depend on the processing

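Over 22 alternatives, 21 planned, no antibody passed except with a separate spread for each group (4 antibodies) and with array weights (1, JAK1, adjusted p = 0.045). In the other 20 alternatives the smallest adjusted p was 0.0764, without tumor 5. Leaving out 1 sample gave 0 antibodies each time, 0 to 1 pairs, 15 to 28 antibodies without overlap, 136 to 143 with an interval within 2-fold, and a median difference of -0.16 to -0.11. The JAK1 pair was also lost, leaving 0 pairs, with quantile normalization (adjusted p = 0.0562), in the authors' value table (0.0648) and with the 2 PB groups alone (0.0537). With the replicate number as a block, 0 antibodies and 0 pairs passed (JAK1 pair adjusted p = 0.273), 7 antibodies had an unadjusted p under 0.05 and the median difference was -0.10. No control correlated best with the tumor of its own number. Antibodies without overlap numbered 2 without centring, 3 with Alexa647 scaling, 3 with quantile normalization, 4 after blank subtraction, 9 in the authors' value table (all higher), 5 with median-ratio centring and 8 without dim antibodies. The last left 94 of 106 antibodies within 2-fold. The authors' value table gave a median difference of 0.13, with 110 antibodies within 2-fold. Signs changed for 66 of 158 antibodies with Alexa647 scaling, 51 with median-ratio centring and 77 in the authors' table. Counts at an unadjusted p under 0.05 ranged from 7 to 40. Causes were not tested. With 3 controls and 52 antibodies dim in some sample, small differences and dim proteins are the least secure.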
